A study of Mus musculus with 24 samples.

Results

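The 8 genes described here encode factors that act when a dividing retinal progenitor commits to becoming a neuron: the basic helix-loop-helix (bHLH) factors Neurog2, Atoh7 and Neurod4, the bHLH factor Hes6, the zinc finger factor Insm1, the antiproliferative protein Btg2, and the SoxC factors Sox4 and Sox11. They were chosen by name, as the rows of the count tables whose Ensembl mouse gene identifier carries one of these symbols. All 8 were found among 46603 annotated genes. They were followed in mouse retinal organoids (MROs) at D20, D22, D25 and D30 of culture, with 6 individual MROs per timepoint and 24 in all, from 1 independent experiment. An MRO is a small piece of retinal tissue grown from pluripotent stem cells, here the wildtype mouse embryonic stem cell line E14TG2a, in a protocol in which the early organoid is cut into 3 parts. The MROs of all 4 timepoints received only water, as a solvent, per the labels. The sample titles of D22, D25 and D30 carry the word Ctrl and those of D20 do not, and the labels give controls alone as the samples of D20. RNA came from whole organoids, and in such bulk samples fewer cells of a type and less RNA per cell cannot be told apart. The MROs of a timepoint are separate organoids of the same experiment, so the p-values measure the spread between organoids and not between experiments.

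As background, proneural bHLH factors bind E-boxes together with E proteins and switch progenitors out of the cell cycle and into neurogenesis. Neurog2 and Atoh7 act in progenitors at or near their last division, and Atoh7 is needed for the birth of retinal ganglion cells. Neurod4 acts downstream in newly born neurons, among them amacrine and bipolar cells. Hes6 is an unusual Hes protein that opposes Hes1 and promotes neuronal differentiation. Insm1 represses progenitor and non-neuronal genes in newborn neurons, Btg2 marks progenitors in neurogenic divisions, and Sox4 and Sox11 activate genes of early neurons. Delta ligands made by committing cells act through Notch on their neighbours, where Hes1 and Hes5 repress the proneural genes by binding N-box and E-box sequences.

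Promoter sequences are shown for the pairs of genes whose courses were most alike over the 24 MROs, Neurog2 with Hes6 and Neurod4 with Btg2 (values further down). Each is the 250 bases before the RefSeq start site in GRCm38.p6, read 5′ to 3′ on the strand of the gene. The RefSeq table had an entry for 7 of the 8 genes, all but Insm1. Where it listed more than 1 start, the sequence belongs to the start nearest to a protein-coding transcript of GENCODE. Capitals mark the E-box (CANNTG), the N-box (CACNAG) and the RBPJ motif (TGGGAA), searched on both strands.
Neurog2, chr3:127632886-127633135, plus strand: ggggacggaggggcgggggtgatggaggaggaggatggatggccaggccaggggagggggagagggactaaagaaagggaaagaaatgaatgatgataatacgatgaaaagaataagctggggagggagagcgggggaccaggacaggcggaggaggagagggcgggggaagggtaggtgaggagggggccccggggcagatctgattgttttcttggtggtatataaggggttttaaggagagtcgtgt
Hes6, chr1:91413223-91413472, minus strand: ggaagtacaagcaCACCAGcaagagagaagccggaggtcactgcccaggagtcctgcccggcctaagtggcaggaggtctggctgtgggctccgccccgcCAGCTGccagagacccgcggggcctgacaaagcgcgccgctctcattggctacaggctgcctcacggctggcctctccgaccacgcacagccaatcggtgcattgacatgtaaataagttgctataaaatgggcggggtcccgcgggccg
Neurod4, chr10:130280255-130280504, minus strand: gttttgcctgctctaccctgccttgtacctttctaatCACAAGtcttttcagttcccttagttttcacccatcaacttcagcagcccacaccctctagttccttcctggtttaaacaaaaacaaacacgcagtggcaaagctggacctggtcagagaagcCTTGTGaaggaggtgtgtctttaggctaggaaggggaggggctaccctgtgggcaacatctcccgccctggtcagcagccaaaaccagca
Btg2, chr1:134079156-134079405, minus strand: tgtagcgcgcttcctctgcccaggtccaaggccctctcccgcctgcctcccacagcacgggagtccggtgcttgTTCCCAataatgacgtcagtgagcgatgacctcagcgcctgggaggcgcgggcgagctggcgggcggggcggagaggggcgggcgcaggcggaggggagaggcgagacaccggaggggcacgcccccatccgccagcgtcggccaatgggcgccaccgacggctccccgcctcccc
The Hes6 sequence held an E-box (CAGCTG) 150 bases before the start and an N-box (CACCAG) 237 bases before it. The Neurod4 sequence held N-boxes 213 and 90 bases before the start, the Btg2 sequence held an RBPJ motif 176 bases before it, and the Neurog2 sequence held none of the 3 motifs in this window. No motif was shared within either pair. Such matches are frequent: of the 32851 mouse promoters of the same length, 66.2% held an E-box, 36.7% an N-box and 21.6% an RBPJ motif. Hes6 has a further RefSeq start 816 bases upstream of the coding transcript, and the 250 bases before that start held 3 E-boxes. Among the genes not printed, Atoh7 had 3 E-boxes, Sox11 had 2 and Sox4 had 1 in the same window. The matches describe letters and not binding.

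Between 13634846 and 19477108 reads per MRO were counted on a feature. Levels are given as normalized CPM, which are CPM on library sizes scaled by TMM, a normalization that assumes most features do not change. The summed level of 5 photoreceptor markers (Crx, Rcvrn, Nrl, Prdm1, Gnat1) was 883 ± 54.8 at D20 and 1832 ± 312 at D30 (SD, n = 6), and that of 4 retina and eye field genes (Six3, Six6, Rax, Lhx2) was 378 ± 36.6 and 157 ± 25.6, so markers of retina were present at both ends. Markers of cortex type neurons were present as well and summed to 95.2 ± 75.7, 66.5 ± 14.4, 261 ± 117 and 324 ± 92.5 in the order of the timepoints. Of the 8 genes 7, all but Atoh7, reached the base mean of 10 normalized counts that a feature needed to be tested. A feature was called changed at an adjusted p below 0.01 by edgeR's quasi-likelihood test, adjusted over all 46949 tested features by Benjamini-Hochberg, and the adjusted p-values below are from that test. For D30 against D20, 3 of the 5 photoreceptor markers were called higher and 1 lower, beside 13.9% and 13.0% of all features. Their sum therefore does not stand for each gene.

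**Figure D1:**
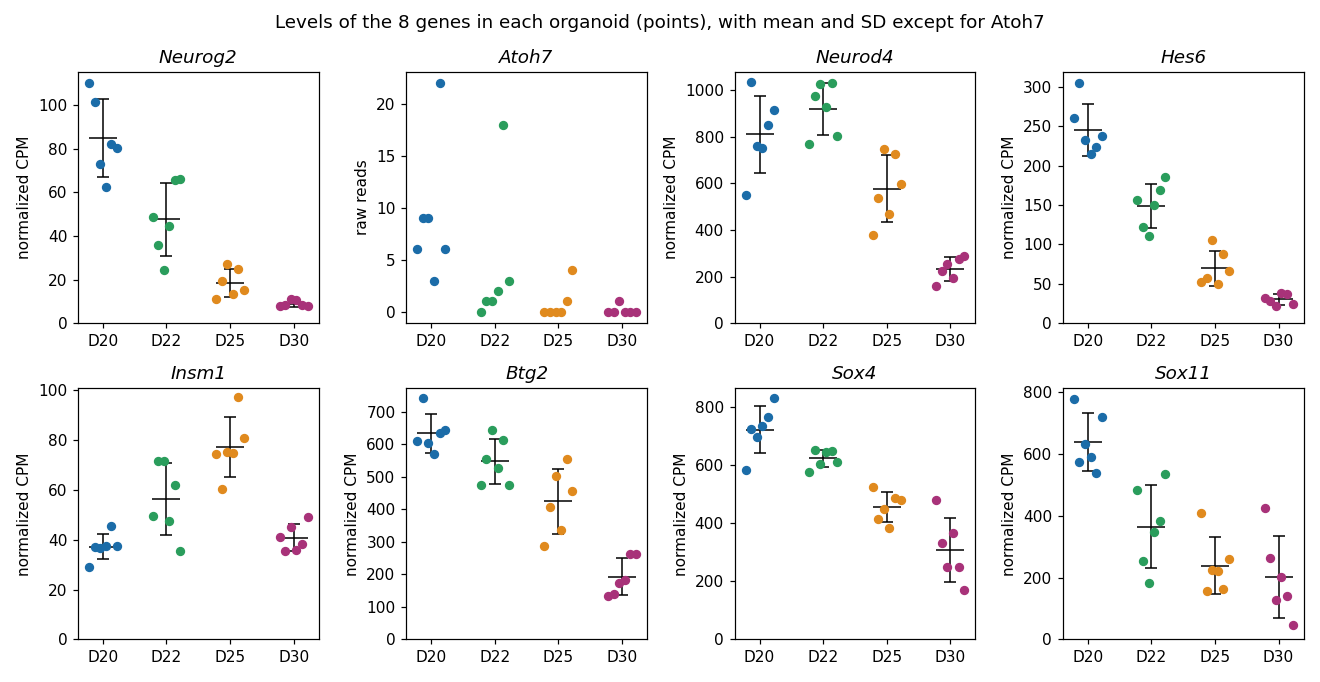
Levels of the 8 genes in each of the 24 MROs. The y axes give normalized CPM, or raw reads for Atoh7; each point is an organoid, and horizontal bars with whiskers give mean and SD (n = 6) for all but Atoh7. The means of Neurog2 and Hes6 were lower at each later timepoint, Neurod4 and Btg2 were lowest at D30, Insm1 was highest at D25, and the D30 organoids spread most for Sox11, from 47.7 to 426.

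Neurog2 (ENSMUSG00000027967, chr3:127633135-127635631 in GRCm38, plus strand, 2 exon blocks) is a proneural factor of progenitors about to leave the cell cycle. It spanned 62.6 to 110 normalized CPM in the D20 MROs with a median of 81.4, then 24.3 to 66.3 in those of D22 (median 46.6), 11.2 to 27.0 in those of D25 (median 17.2), and 7.71 to 10.9 in those of D30 (median 8.21). The MROs of D30 were all below those of D25, which were all below those of D20, while the ranges of D20 and D22 overlapped, as did those of D22 and D25. From D22 to D25 it fell by 1.36 log2 units (SE 0.209, adjusted p = 7.43e-05) and fell by 1.06 from D25 to D30 (SE 0.214, adjusted p = 0.00161). The change from D20 to D22 was -0.84 (SE 0.205) and missed the threshold (adjusted p = 0.0131). It passed with DESeq2 (adjusted p = 0.00262), without a minimum (adjusted p = 0.00486) and with only the MROs of these timepoints (adjusted p = 0.00713). It also passed without replicate 5 or 6 of D22 or replicate 1 of D25 (adjusted p from 0.00477 to 0.00871). From D20 to D30 Neurog2 fell by 3.25 (SE 0.225, adjusted p = 9.30e-13), which left 10.5% of the D20 level. The slope was -0.454 log2 units per day between D22 and D25 and -0.211 after D25. The difference of these slopes, 0.243 (SE 0.099), had an unadjusted p of 0.0198 and did not pass the adjustment (adjusted p = 0.362).

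Atoh7 (ENSMUSG00000036816, chr10:63099651-63101279 in GRCm38, plus strand, 1 exon block), the factor of ganglion cell genesis, was close to the limit of what was counted. At D20 the 6 MROs had 6, 9, 9, 3, 22 and 6 reads in the order of their replicate numbers. At D22 they had 0, 1, 1, 2, 18 and 3 reads, at D25 0, 0, 0, 0, 1 and 4, and at D30 0, 0, 1, 0, 0 and 0. All MROs of D20 thus had reads, and the total over the 6 MROs went from 55 reads through 25 and 5 to 1. Replicate 5 held 22 of the 55 reads at D20 and 18 of the 25 at D22, and the 2 MROs are different organoids. A count of 0 allows up to 3 reads, which is between 0.154 and 0.22 CPM at these depths, and this covers counting error only. Atoh7 was left out of the fit by the minimum. In a fit without a minimum its adjusted p was 0.00249 for D30 against D20 and 0.692, 0.275 and 0.679 for the 3 intervals in turn, so the interval of the drop was not resolved at this depth. The 5 ganglion cell markers (Pou4f1, Pou4f2, Isl1, Sncg, Nefl) summed to 196 ± 42.8, 105 ± 28.6, 97.4 ± 25.2 and 193 ± 79.5 normalized CPM in the order of the timepoints. The sum does not stand for each gene. For D30 against D20, 3 of the 5 were called lower and 0 higher, beside 13.0% and 13.9% of all features.

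Neurod4 (ENSMUSG00000048015, chr10:130268152-130280240 in GRCm38, minus strand, 2 exon blocks), a factor of newly born neurons, spanned 549 to 1034 normalized CPM in the D20 MROs with a median of 806, then 770 to 1028 in those of D22 (median 949), 380 to 746 in those of D25 (median 566), and 160 to 289 in those of D30 (median 238). Every D25 organoid lay below every D22 organoid, and every D30 organoid below every D25 organoid. The difference between D22 and D20 was 0.18 on the log2 scale (SE 0.151, adjusted p = 0.581). Neurod4 then fell by 0.68 to D25 (SE 0.151, adjusted p = 0.00324) and fell by 1.31 to D30 (SE 0.153, adjusted p = 7.64e-07). The call of D25 against D22 was lost without replicate 1 of D25 (adjusted p = 0.0106) or without its replicate 4 (adjusted p = 0.0119). From D20 to D30 it fell by 1.80 (SE 0.155, adjusted p = 1.06e-10), which left 28.6% of the D20 level. The turn at D22, a slope after D22 minus that before of -0.317 log2 units per day (SE 0.108), had an unadjusted p of 0.00625 and an adjusted p of 0.202.

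The ratio of Neurod4 to Neurog2 within each MRO does not depend on the scaling between libraries. The log2 ratio of their counts was 2.32 to 3.59 at D20 and 4.17 to 5.23 at D30, without overlap. Its mean was highest at D25, with 4.99 (4.79 to 5.29), and was 4.68 at D30. The mean ratio was 1.43 higher at D30 than at D20 on the log2 scale (two-sided exact permutation test, p = 0.00216, the smallest that 6 against 6 MROs allow, and 0.00866 after adjustment over the 4 ratios tested). The mean log2 ratio of Neurod4 to Atoh7 was 10.5 at D20, 13.4 at D25 and 12.6 at D30. It was 2.12 higher at D30 than at D20 (exact permutation test, p = 0.00433, adjusted p = 0.00866). Since Atoh7 was at 0 reads in most MROs of D30, the size of that value rests on the 0.5 added to each count, and it was 1.315 (adjusted p = 0.0173) when 1 was added.

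Hes6 (ENSMUSG00000067071, chr1:91411483-91414038 in GRCm38, minus strand, 2 exon blocks), which opposes Hes1, was called in every interval. It spanned 215 to 305 normalized CPM in the D20 MROs with a median of 236, then 111 to 186 in those of D22 (median 154), 50.4 to 106 in those of D25 (median 62.0), and 21.9 to 38.9 in those of D30 (median 30.0). The 4 ranges did not touch. It fell by 0.72 from D20 to D22 (SE 0.162, adjusted p = 0.00716), fell by 1.09 to D25 (SE 0.164, adjusted p = 5.63e-05) and fell by 1.21 to D30 (SE 0.166, adjusted p = 1.09e-05). In the earliest interval the call was lost, with an adjusted p between 0.0115 and 0.0282, when replicate 1, 2, 3 or 6 of D20 or replicate 1, 2, 3 or 4 of D22 was left out. Over D20 to D30 Hes6 fell by 3.02 (SE 0.175, adjusted p = 2.20e-14) to 12.3% of its D20 level. The log2 ratio of Hes6 to Hes5, a repressor of the proneural genes, was 0.56 higher at D30 than at D20 within the MROs (exact permutation test, p = 0.123 after adjustment over the 4 ratios), a difference inside the spread of the D30 organoids, which ran from 2.21 to 4.48.

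Insm1 (ENSMUSG00000068154, chr2:146221921-146225020 in GRCm38, plus strand, 1 exon block), a repressor of progenitor genes in newborn neurons, took another course. It spanned 29.2 to 45.5 normalized CPM in the D20 MROs with a median of 37.2, then 35.5 to 71.7 in those of D22 (median 55.8), 60.5 to 97.4 in those of D25 (median 75.1), and 35.6 to 49.0 in those of D30 (median 39.8). All D25 organoids were above all those of D20 and of D30, and the D20 and D30 ranges lay over each other. Insm1 rose from D20 to D25 by 1.05 log2 units (SE 0.142, adjusted p = 1.54e-06), and fell by 0.92 from D25 to D30 (SE 0.142, adjusted p = 5.90e-05). Neither of the shorter changes passed the threshold, with 0.60 from D20 to D22 (SE 0.142, adjusted p = 0.0108) and 0.46 from D22 to D25 (SE 0.141, adjusted p = 0.0320). That to D22 passed with DESeq2 (adjusted p = 0.00428), without a minimum (adjusted p = 0.00847) and with annotated genes only (adjusted p = 0.00706). It also passed without replicate 5 of D20, 6 of D22, 2 or 5 of D25 or 6 of D30 (adjusted p from 0.00094 to 0.00961). D30 differed from D20 by 0.13 (SE 0.142, adjusted p = 0.492). The slope after D25 differed from that between D22 and D25 by -0.335 log2 units per day (SE 0.064, unadjusted p = 1.25e-05, adjusted p = 0.0268). That contrast passed the threshold in a fit without the low count minimum, with DESeq2, and without replicate 3 of D22 (adjusted p = 0.00363, 0.00228 and 0.006).

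Btg2 (ENSMUSG00000020423, chr1:134075170-134079120 in GRCm38, minus strand, 2 exon blocks), an antiproliferative protein of neurogenic divisions, spanned 569 to 742 normalized CPM in the D20 MROs with a median of 621, then 473 to 643 in those of D22 (median 540), 287 to 555 in those of D25 (median 432), and 134 to 263 in those of D30 (median 179). The ranges of D20, D22 and D25 ran into each other in turn, and all D30 organoids lay below them. Btg2 fell by 1.14 from D25 to D30 (SE 0.152, adjusted p = 6.92e-06). The changes of -0.21 to D22 (SE 0.150, adjusted p = 0.505) and of -0.37 from D22 to D25 (SE 0.150, adjusted p = 0.116) did not pass. The sum of both, a change of -0.58 from D20 to D25 (SE 0.150), had an adjusted p of 0.00460, and it was lost without replicate 2 of D20 or without replicate 1, 2 or 4 of D25 (adjusted p from 0.0104 to 0.0148). From D20 to D30 Btg2 fell by 1.72 (SE 0.154, adjusted p = 2.51e-10), to 30.4% of its D20 level.

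Sox4 (ENSMUSG00000076431, chr13:28948919-28953713 in GRCm38, minus strand, 1 exon block) and Sox11 (ENSMUSG00000063632, chr12:27334264-27342574 in GRCm38, minus strand, 1 exon block) encode related activators of neuronal genes. Sox4 spanned 584 to 832 normalized CPM in the D20 MROs with a median of 729, then 578 to 651 in those of D22 (median 628), 384 to 525 in those of D25 (median 465), and 169 to 478 in those of D30 (median 292). All MROs of D25 lay below all those of D22, while D25 and D30 overlapped. No interval of Sox4 passed the threshold in the fit of all MROs: the changes were -0.21 to D22 (SE 0.144, adjusted p = 0.477), -0.45 from D22 to D25 (SE 0.144, adjusted p = 0.0398) and -0.57 from D25 to D30 (SE 0.145, adjusted p = 0.0121). Over D20 to D30 Sox4 fell by 1.23 (SE 0.146, adjusted p = 5.92e-08), to 42.6% of its D20 level. The change from D25 to D30 was -0.72 without replicate 1 of D30 (adjusted p = 0.000525) and passed also without its replicate 4 (adjusted p = 0.00979), without a minimum count (adjusted p = 0.00466) and with annotated genes only (adjusted p = 0.00168). The change from D22 to D25 passed with annotated genes only (adjusted p = 0.0054), with only the MROs of these timepoints (adjusted p = 0.000976) and without replicate 6 of D30 (adjusted p = 0.00867). Sox4 overlaps the long noncoding RNA gene Gm26735 on the opposite strand. Over all 24 MROs 6224 reads were counted on that gene, beside 64112, 55361, 45354 and 30339 on Sox4 in the order of the timepoints. Whether the counting used the strand is not known, so how reads in the overlap were handled cannot be said.

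Sox11 spanned 537 to 776 normalized CPM in the D20 MROs with a median of 611, then 183 to 536 in those of D22 (median 365), 157 to 407 in those of D25 (median 223), and 47.7 to 426 in those of D30 (median 170). Each D22 organoid lay below each D20 organoid, if only just, and the ranges of D22, D25 and D30 lay over each other. Its SD was 14.5% of the mean at D20 and 65.9% at D30, the largest spread within D30 among the 7 tested genes. Sox11 fell by 1.67 from D20 to D30 (SE 0.314, adjusted p = 8.30e-05) and had already changed by -1.42 at D25 (SE 0.312, adjusted p = 0.000980). The changes per interval were -0.81 (SE 0.308, adjusted p = 0.137), -0.61 (SE 0.308, adjusted p = 0.224) and -0.25 (SE 0.307, adjusted p = 0.764). The change from D20 to D22 passed in a fit of only the MROs of these timepoints (adjusted p = 0.0059). Per kilobase of exon, the ratio of the level of Sox4 to that of Sox11 had a median of 2.08 at D20 and 3.15 at D30. Their log2 count ratio within the MROs was 0.65 higher at D30 (exact permutation test, p = 0.0303, adjusted p = 0.0404, above the threshold of 0.01). It was 0.79 higher without replicate 1 of D30 (adjusted p = 0.00866) and 0.455 higher without its replicate 6 (adjusted p = 0.0779). With any 1 of the other D20 or D30 organoids left out, the adjusted p of this test was between 0.0231 and 0.0779.

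**Figure D2:**
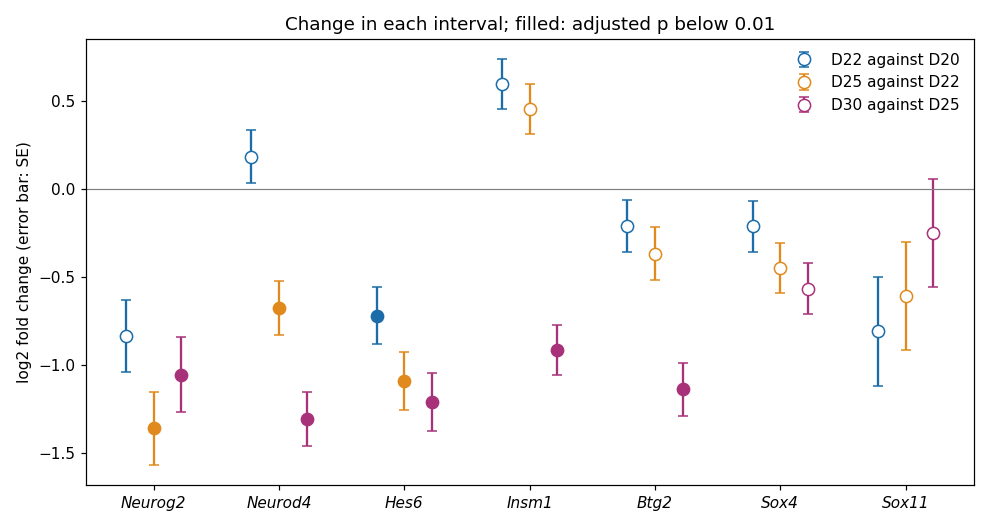
Log2 fold change of the 7 tested genes in each of the 3 intervals, with its SE. Filled points passed the threshold; Hes6 did so in all 3 intervals, Neurog2 and Neurod4 in the later 2, Insm1 and Btg2 from D25 to D30 only, and Sox4 and Sox11 in none.

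Put together by interval, 1 of the 7 tested genes was called lower at D22 than at D20 (Hes6), where 0.285% of all features were. From D22 to D25 3 were called lower (Neurog2, Neurod4, Hes6), beside 2.19% of all features, and from D25 to D30 5 were (also Insm1 and Btg2), beside 1.75%. In that last interval the MROs of D30 were all below those of D25 for the same 5 genes, which held for 2.15% of all features. For D30 against D20 6 of the 7 were called lower, all but Insm1, beside 13.0% of all features, and their MROs did not overlap, which held for 9.34% of features. At D25 against D20 5 were called lower, beside 6.61%, and 1 was called higher (Insm1), beside 8.5%. At D30 against D22 5 were called lower (Neurog2, Neurod4, Hes6, Btg2, Sox4), beside 10.5%. The joint test of the 4 timepoints called all 7 tested genes, beside 27.2%. These shares are over all tested features, most of which are assembled loci, and they were larger among genes. In a fit of 16284 annotated genes only, the joint test called 7627. There 3545 were called lower for D30 against D20 and 740 for D30 against D25. No gene of the 7 was called for a change of slope at D22 or at D25, where 0.0298% and 0.0128% of features were; at an unadjusted p below 0.05 there were 1 and 2 of them. The median log2 fold change of the 7 genes was -0.21, -0.61 and -1.06 in the 3 intervals, and that of all tested features was 0.03, -0.05 and -0.02.

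The share of the log2 change from D20 to D30 that was reached by D25 is a description, and its difference between genes was not tested. By D25 Sox11 had covered 85.1% of its log2 change, Neurog2 67.6%, Hes6 59.9% and Sox4 53.8%. Btg2 had covered 33.7% and Neurod4 27.4% by then. At D20 the levels per kilobase of exon were in the order Neurod4 (242 normalized CPM per kilobase), Btg2 (231), Sox4 (151), Hes6 (136), Sox11 (76.7), Neurog2 (38.2), Insm1 (12.01) and Atoh7 (0.388). Neurod4 and Btg2, like Sox4 and Hes6, were neighbours whose means differed by less than their SDs. At D30 the order was Btg2 (70.2), Neurod4 (69.4), Sox4 (64.2), Sox11 (24.2), Hes6 (16.7), Insm1 (13.2) and Neurog2 (4.004), with Hes6 now below Sox11 and Neurog2 below Insm1. The means of Btg2, Neurod4 and Sox4 there differed by less than their SDs. Those of Sox11 and Hes6 differed by less than the SD of Sox11 (15.9), so their order is not firm.

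**Figure D3:**
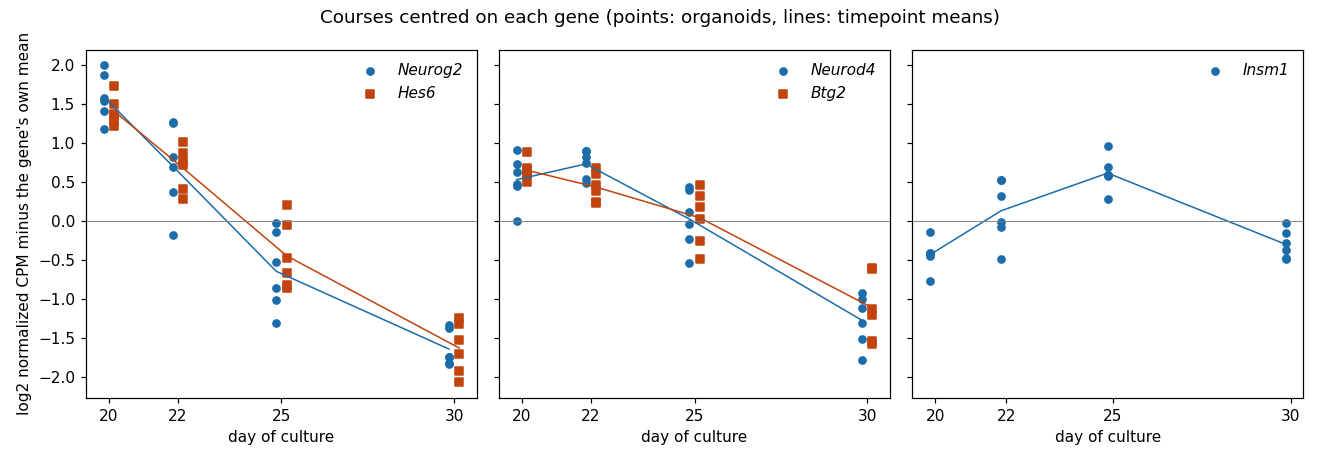
Courses of the closest pairs and of Insm1. The y axis gives log2 normalized CPM after subtracting the mean of each gene over the 24 MROs, the x axis the day of culture; points are organoids and lines join timepoint means. Neurog2 and Hes6 lay close to each other and declined from D20, Neurod4 and Btg2 were near their D20 level at D22, and Insm1 peaked at D25.

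Likeness of course was measured as the root mean square difference, in log2 units, of profiles centred on each gene's mean over the 24 MROs. The 24 values share the 4 timepoints, so the measure mostly reads the time course, and it is a description. It is not scaled to a gene's own spread, so genes that change more tend to have larger distances. The root mean square of a member's own centred profile ran from 0.475 (Insm1) to 1.292 (Neurog2). Among the members Neurod4 and Btg2 (0.247) and Neurog2 and Hes6 (0.293) were closest, and Neurog2 and Insm1 (1.49) farthest. Against 11574 annotated genes, the nearest to Neurog2 were E2f1 (0.311), Baz1a (0.337) and Epha2 (0.353), and the nearest to Hes6 were Baz1a (0.197), the cyclin gene Ccnd1 (0.289) and E2f1 (0.291). E2f1 is a factor of S phase entry. The nearest to Neurod4 were the homeobox gene Otx2 (0.228), Rreb1 (0.288) and the nuclear receptor gene Rorb (0.291), and the nearest to Btg2 were Rorb (0.242), the eye field gene Six6 (0.252) and Otx2 (0.253). The nearest to Insm1 were Fam53b (0.182), Shisa2 (0.193) and Trak2 (0.200). The nearest to Sox4 were Marcks (0.191), Ypel1 (0.205) and C530008M17Rik (0.215), and those to Sox11 were Dock11 (0.353), Carhsp1 (0.385) and Slco5a1 (0.392). Sox11 also had a larger spread of its own than Sox4 (0.952 and 0.565).

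MROs of the same timepoint also differed from each other in these genes, in a pattern that was noticed after the values were seen and was not tested. In each of the 4 timepoints the MRO with the highest Sox11 was the one with the lowest photoreceptor marker sum. At D30 this was replicate 1, with 426 normalized CPM of Sox11 and a photoreceptor sum of 1283, while replicate 6 had the lowest Sox11 (47.7) and the highest sum (2077). At D25 it was replicate 1 with 407 and 1387, at D22 replicate 6 with 536 and 1012, and at D20 replicate 1 with 776 and 798. Sox4 was likewise highest in replicate 1 (478) and lowest in replicate 6 (169) at D30, but at D20 replicate 1 was the lowest in Sox4 (584), and at D22 replicate 6 was in the middle (612). Neurod4 and Btg2 ran the other way at D30, with 160 and 134 in replicate 1 and 289 and 263 in replicate 6. At D25 replicate 1 was likewise lowest in Neurod4 (380) and Btg2 (287) and in Neurog2 (11.2), and highest in Sox4 (525). At D22 replicate 6, highest in Sox11, was also highest in Neurog2 (66.3) and Hes6 (186) and lowest in Insm1 (35.5).

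Markers of other cell types differed between the same organoids. At D30 replicate 1 had the highest and replicate 6 the lowest sum of 4 Müller glia markers (1988 and 564 normalized CPM; Rlbp1, Glul, Aqp4, Slc1a3), and the sum of 12 early neuron genes was 3771 and 1597 in the same organoids, again the highest and the lowest. The sum of 6 cortex type neuron markers was lowest in replicate 6 (205) and highest in replicate 5 (447) at D30, and at D25 it was highest in replicate 1 (473). The part of these cells in the levels of Sox4 and Sox11 was not tested. The log2 fold change of Sox11 for D30 against D20 was -1.67 with all MROs, -2.02 without replicate 1 of D30 and -1.46 without its replicate 6.

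**Figure D4:**
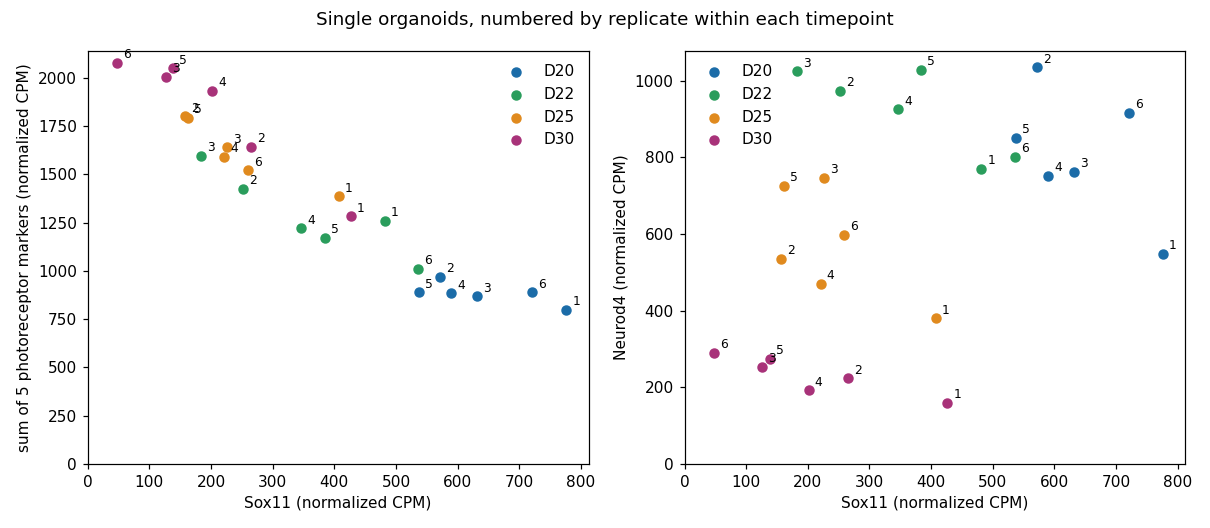
Sox11 in each MRO (x axis, normalized CPM) against the sum of 5 photoreceptor markers (left) and against Neurod4 (right), both in normalized CPM. Colours give the timepoint and numbers the replicate; at D30 the organoids run from replicate 1 (426 of Sox11, photoreceptor sum 1283) to replicate 6 (47.7 and 2077).

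Lists of related genes show where the members stood among their relatives. Of 11 further bHLH genes 9 were tested. For D30 against D20, 2 were called higher (Bhlhe23, Olig1) and 2 lower (median log2 fold change 0.08). In this comparison, which all counts over the lists below use unless another is named, 13.9% of all features were called higher and 13.0% lower. Here and below, genes named only within such a count were picked out after their values were seen. Ptf1a, which specifies amacrine and horizontal cells, fell by 5.37 (4.87 ± 1.55 normalized CPM at D20, 0.108 ± 0.137 at D30, adjusted p = 2.74e-08), and Neurog1, the closest relative of Neurog2, fell by 4.58 (4.83 ± 2.08 and 0.198 ± 0.293, adjusted p = 1.14e-07). Both were low throughout, so their fitted folds are imprecise. Neurod1, a relative of Neurod4 that photoreceptors need, measured 433 ± 46.9 at D20, then 628 ± 141, 635 ± 123 and 405 ± 71.2, and its log2 fold change over the whole course was -0.09 (adjusted p = 0.620). Bhlhe22 stood at 81.2 ± 22.3 and 85.6 ± 33.8 (0.08, adjusted p = 0.820). Of the 7 dimer partners and Id inhibitors, 1 was called higher and 1 lower: Id4, an inhibitor of bHLH factors, rose by 1.40 (28.1 ± 4.35 to 74.3 ± 48.1, adjusted p = 8.05e-05), and the E protein gene Tcf3 fell by 1.10 (39.0 ± 6.71 to 18.2 ± 4.23, adjusted p = 2.51e-07). The most abundant E protein gene, Tcf4, was at 345 ± 49.2 and 389 ± 179 (0.17, adjusted p = 0.520).

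Of 7 Hes and Hey repressor genes 6 were tested, and for D30 against D20 4 were called lower (Hes1, Hes2, Hes5, Heyl) and 1 higher (Hey2; median -2.05). Heyl fell by 3.68 (adjusted p = 9.75e-10) and Hes5, a Notch target, fell by 3.43 (adjusted p = 1.64e-10), the latter from 40.4 ± 7.07 to 3.75 ± 1.97 normalized CPM, while Hes1 fell by 0.67 (29.2 ± 4.36 to 18.4 ± 1.86, adjusted p = 0.00125). The most abundant gene of the list, Hey1, was at 42.7 ± 9.56 and 32.6 ± 11.9 (-0.39, adjusted p = 0.123). Of 12 genes of committing progenitors, which include Delta ligands, 9 were called lower and 1 higher (median -2.12). Foxn4, a factor of amacrine and horizontal cell competence, fell by 5.87 (28.8 ± 8.55 to 0.487 ± 0.167, adjusted p = 5.50e-14) and the corepressor gene Rcor2 fell by 2.71 (152 ± 26.1 to 23.3 ± 5.18, adjusted p = 1.69e-15), and the gene called higher was Myt1, which rose by 0.67 (97.2 ± 11.7 to 155 ± 6.58, adjusted p = 3.15e-06). All 7 division genes were called lower (median -1.48), among them Mki67 (-1.75, adjusted p = 1.09e-06) and Top2a (-1.78, adjusted p = 2.57e-06). For D30 against D20 the Hes and Hey, division and committing progenitor lists therefore had medians on the side of the members. The median of the family relatives described next was also negative (-0.56), and that of all tested features was -0.04. By interval the medians were -0.84, -0.02 and -0.49 for the division genes. For the genes of committing progenitors they were -0.28, -0.67 and -0.79.

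Family relatives of the other members split. Of 7 such genes 6 were tested, and 3 were called lower (Insm2, Btg1, Btg3) and 2 higher (Tob1, Tob2) at D30 than at D20 (median -0.56). Btg1, a relative of Btg2, fell by 1.02 (213 ± 19.8 to 105 ± 6.47, adjusted p = 9.70e-11) and Insm2 fell by 3.29 (5.03 ± 1.85 to 0.502 ± 0.275, adjusted p = 1.96e-07), while Tob2, of the same family as Btg2, rose by 0.81 (38.2 ± 3.88 to 66.9 ± 9.68, adjusted p = 7.33e-06). Of 12 early neuron genes 2 were called higher (Map2, Stmn3) and 2 lower (Nhlh1, Nhlh2) for D30 against D20 (median 0.36). Map2, a protein of neuronal microtubules, rose by 1.54 (530 ± 109 to 1537 ± 207, adjusted p = 6.22e-10) and the bHLH gene Nhlh2 fell by 1.58 (70.6 ± 15.7 to 23.6 ± 5.91, adjusted p = 1.87e-07). Stmn1 stood at 246 ± 39.0 and 218 ± 85.9 (-0.17, adjusted p = 0.511). Between D22 and D25, when 3 of the members were called lower, 4 of these 12 genes were called higher (Dcx, Stmn3, Gap43, Map2). In that interval 0 were called lower, and 3.08% of all features were called higher. For D25 against D20, 2 of the 12 were called higher (Map2, Stmn3), beside 8.5% of all features. Dcx and Gap43 were not called there (adjusted p = 0.1 and 0.169), since their means were lowest at D22. Dcx averaged 73.8 normalized CPM at D20, 28.4 at D22 and 169.5 at D25, and Gap43 83.3, 49.5 and 137.5. The D25 MROs were far apart in both, from 35.4 to 449 normalized CPM of Dcx and from 49.5 to 340 of Gap43. The mean sum of the cortex type neuron markers went from 66.5 ± 14.4 at D22 to 261 ± 117 at D25. Its part in these 12 genes was not tested.

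**Figure D5:**
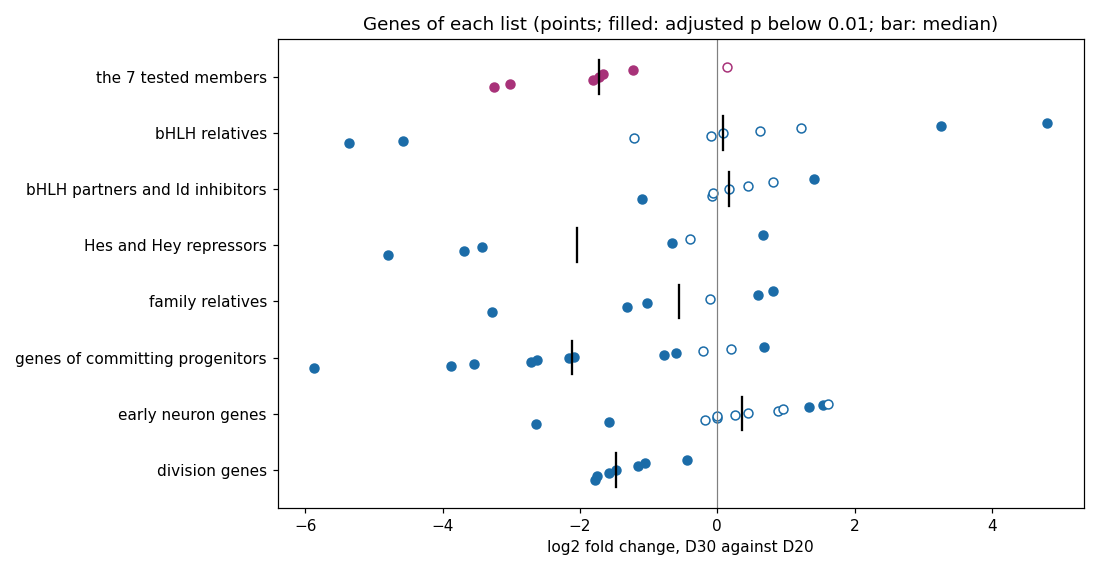
Log2 fold change of D30 against D20 for the 7 tested members and for the tested genes of 7 lists. Each point is a gene, filled where it passed the threshold, and black bars are medians. The median was -1.72 for the members and -2.12 for the genes of committing progenitors. It was -2.05 for the Hes and Hey repressors and 0.36 for the early neuron genes.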

How the data were processed

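RNA of 24 individual mouse retinal organoids, 6 each at D20, D22, D25 and D30, was depleted of ribosomal RNA and sequenced as stranded single-end libraries. The authors trimmed the reads with cutadapt (version 1.5), aligned them with HISAT2 to GRCm38, assembled transcripts with StringTie (version 1.3.3), counted reads per feature with HTSeq (version 0.6.1), per the submitters' processing notes, and deposited the raw counts, as whole numbers per annotated gene or assembled locus. Whether the counting used the strand is not given in the sources used here.

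Timepoints and replicate numbers were read from the labels. A feature was kept if its base mean reached 10 normalized counts (46949 of 126602, of which 16253 annotated genes). After TMM normalization, 1 quasi-likelihood fit of all 24 libraries was made in edgeR (version 4.0.16, R version 4.3.3). P-values were adjusted by Benjamini-Hochberg across these features, and 0.01 was the threshold. Depth was 13634846 to 19477108 reads on features per organoid, and the common biological coefficient of variation was 0.3846. Ratios of counts within an organoid (0.5 added) were compared with a two-sided exact permutation test. Courses were compared among tested annotated genes with a mean of at least 5 normalized CPM. Gene positions come from GENCODE, promoters from RefSeq (GRCm38.p6). No 2 libraries of a timepoint agreed within sampling noise.

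The 8 genes, the lists and the tests were chosen with earlier results of these data known. From each list, the genes named are those with the smallest adjusted p for D30 against D20 and the highest mean level. The replicate numbers do not pair organoids across timepoints. The test was also run on simulated counts of annotated genes, with a smaller spread than these data have. That run does not show how the test performs at the spread seen here. Alternatives were DESeq2 (version 1.42.0), its size factors in edgeR, no minimum, filterByExpr, a fit restricted to annotated genes, a replicate block, the 2 compared timepoints only, and the omission of each organoid.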

Additional observations from a re-analysis of the deposited data

How the results depend on the processing

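The direction of every reported change of a member was kept under all alternatives. Counts of called members stayed within 1.5 times for D25 against D22 (2 to 4 when an organoid was left out), D30 against D25 (5 to 6), D30 against D20 (6), D25 against D20 (5 to 7), D30 against D22 (5 to 6) and the joint test (7). For D22 against D20, 1 member was called, and 3 were called with DESeq2, 3 without a minimum, 3 with only the compared timepoints, 2 with annotated genes only, 0 with a replicate block, and 0 to 3 when an organoid was left out. For the change of slope at D25 the 0 called became 1 with DESeq2, 1 without a minimum, and 0 to 1 when an organoid was left out. The cause was not tested.

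Without an organoid, the ratio of Neurod4 to Atoh7 ranged from 1.833 to 2.356 and its call was lost without replicate 1, 2, 3, 5 or 6 of D20 or 2, 4, 5 or 6 of D30; that of Sox4 to Sox11 ranged from 0.455 to 0.787, and with 1 added to each count the value for Atoh7 was 1.315. The replicate numbers shared no deviation (mean correlation 0.013 over 36 same-number pairs and -0.003 over 180 others, with 1 of the 36 over 0.1), and the replicate block moved the calls of all features for D22 against D20 from 894 to 823. Leaving out an organoid gave 444 to 1332 calls there, with 444 without replicate 3 of D22, 499 without replicate 1 of D20, 570 without replicate 2 of D22 and 1332 without replicate 6 of D22, and 51 to 309 of the calls were lower, where all organoids gave 134. The 2478 calls for D25 against D22 became 1580 without replicate 1 of D22 (1580 to 2864 over all organoids left out), and the other pairs of timepoints and the joint test stayed within 1.5 times. The changes of slope had 0 to 34 calls at D22, with 34 without replicate 2 of D25, and 1 to 85 at D25, with 85 without replicate 3 of D22. DESeq2 called 1605 features for D22 against D20, and 136 and 78 for the changes of slope at D22 and D25. For these slopes edgeR called 14 and 6 (64 and 55 without a minimum, 4 and 1 with annotated genes only, and 7 at D22 with DESeq2's size factors or filterByExpr). With annotated genes only, which tests fewer features, 12592 calls for D30 against D20 became 7322, 10081 for D30 against D22 became 6167, 7095 for D25 against D20 became 4672, and 12767 in the joint test became 7627. This scaling moved the median log2 fold change of annotated genes for D30 against D22 from 0.136 to -0.003, and Insm1 and Sox11 then also passed there. Depth limited Atoh7, with 55 reads over the D20 organoids.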
